A study of Mus musculus with 2 samples.

Results

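The cartilage collagens are described here through 7 chain genes, *Col2a1* of collagen II, *Col9a1*, *Col9a2* and *Col9a3* of collagen IX, *Col11a1* and *Col11a2* of collagen XI, and *Col27a1* of collagen XXVII. They were taken by gene symbol, and all 7 were found among the 23628 genes listed for each library, 43 of which have the symbol of a collagen chain. The data are 2 RNA-sequencing libraries, named replicate 1 and replicate 2, of a single group of mouse chondrospheres. Chondrospheres are clonal cartilage-like spheres, here derived from *Sox9* IRES-EGFP reporter pups at postnatal day 7. Femoral head cells were sorted for high GFP and for lack of CD31, Ter119 and CD45, then cultured in methylcellulose under low oxygen with FGF2, BMP4, IGF1, LIF and TGF-β1. Both libraries share this genotype, age, sort and medium, and no other group was analysed here. GFP in these mice follows the *Sox9* locus, so the sort itself selected cells that use this activator of cartilage collagen genes. The methods describe each pup as harvested separately, but the labels do not say how many pups or spheres went into a library.

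Cartilage fibrils are mixed polymers. Collagen II, a trimer of identical chains from *Col2a1*, makes up their bulk. Collagen XI lies within the fibril and limits its width, and its trimer joins the products of *Col11a1* and *Col11a2* with a chain that also comes from *Col2a1*. Collagen IX carries a chain from each of its genes, sits on the fibril surface and does not form fibrils alone. Collagen XXVII is a fibrillar collagen of cartilage that forms thin fibrils of its own. Mutations in several of these genes are known causes of chondrodysplasias and Stickler syndrome.

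All chains are built from glycine-led Gly-X-Y triplets, and this repeat can be read in the coding sequences. In GENCODE M21, *Col2a1* has a longest unbroken run of 339 triplets, and *Col11a1* and *Col11a2* have 338 each. Each of these genes carries a second, shorter run of 17 to 20 triplets upstream. The longest run of *Col27a1* is 217 triplets, followed after a single codon by another run of 93. A short run of 19 triplets lies upstream of the longest run, 6 codons away. The collagen IX genes share another layout, 5 runs each, of which the longest is 113 triplets in *Col9a1*, *Col9a2* and *Col9a3* alike. Runs of at least 10 triplets occur in only 53 (0.464%) of the 11434 coding genes whose mean level reached 1 CPM (counts per 1000000). Within the runs, every exon of *Col2a1* (43), *Col11a1* (49), *Col11a2* (49) and *Col27a1* (50) has a length that is a multiple of 9 bases, so that exons hold whole triplets. The same was true of 21 of 23 exons in *Col9a1* and *Col9a2* and of 21 of 24 in *Col9a3*, against 13.9% of the internal coding exons of the coding genes above. The most frequent single length was 54 bases, found in 24 such exons of *Col2a1*, 31 of each collagen XI gene, 32 of *Col27a1* and 14 of each collagen IX gene.

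**Figure D1:**
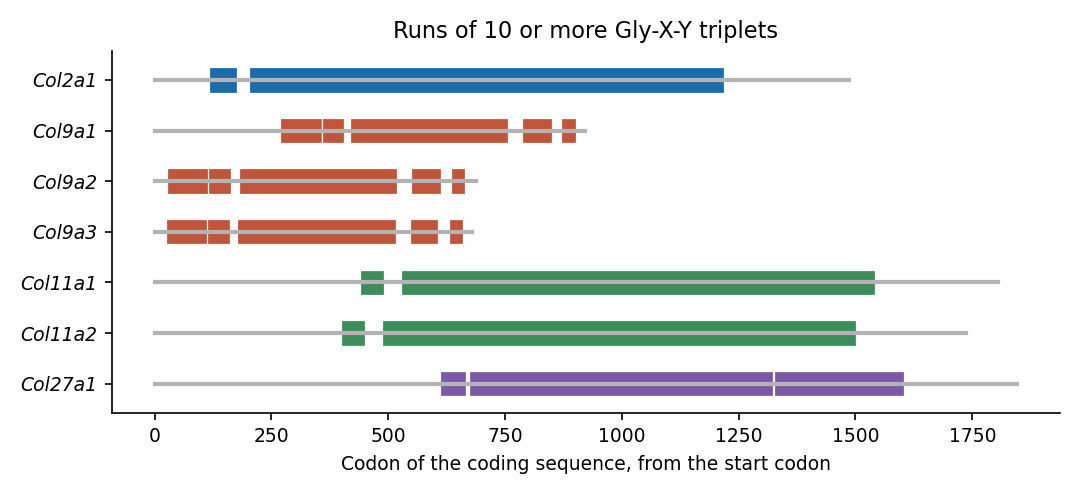
Runs of at least 10 Gly-X-Y triplets (coloured bars) along the coding sequence (grey line) of each chain gene, with the codon number from the start codon on the x axis. *Col2a1*, *Col11a1* and *Col11a2* each show a run of 338 or 339 triplets behind a short one. *Col27a1* shows a short run of 19 triplets, then runs of 217 and 93. The 3 collagen IX genes repeat a pattern of 5 shorter runs.

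One 54-base exon of each gene, the first one in its longest run, is printed to show the repeat that the chains have in common. Coordinates are on GRCm38, sequences run 5′ to 3′ along the gene, and capitals mark the glycine codon that opens each of the 6 triplets.
Col2a1, exon 10 of 54, minus strand of chr15:97996489-97996542: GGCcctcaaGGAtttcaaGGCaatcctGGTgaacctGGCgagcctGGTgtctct
Col9a1, exon 18 of 38, plus strand of chr1:24210373-24210426: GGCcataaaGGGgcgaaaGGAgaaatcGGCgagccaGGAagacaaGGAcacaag
Col9a2, exon 12 of 32, plus strand of chr4:121045141-121045194: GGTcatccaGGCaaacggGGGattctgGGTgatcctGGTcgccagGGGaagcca
Col9a3, exon 13 of 33, plus strand of chr2:180605727-180605780: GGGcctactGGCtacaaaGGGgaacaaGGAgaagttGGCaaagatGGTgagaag
Col11a1, exon 15 of 67, plus strand of chr3:114108281-114108334: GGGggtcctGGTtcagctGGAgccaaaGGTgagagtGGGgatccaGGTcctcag
Col11a2, exon 15 of 66, plus strand of chr17:34051480-34051533: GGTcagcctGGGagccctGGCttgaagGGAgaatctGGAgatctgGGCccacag
Col27a1, exon 7 of 61, plus strand of chr4:63245069-63245122: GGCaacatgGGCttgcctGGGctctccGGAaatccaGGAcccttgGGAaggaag

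*Col27a1* alone in the group has a single extra codon between long runs. This break is shown with the triplets on either side. It falls within chr4:63315607-63317495 of GRCm38, across an exon junction, and the capitals again mark the glycine codons of the triplets.
Col27a1, break between its long runs: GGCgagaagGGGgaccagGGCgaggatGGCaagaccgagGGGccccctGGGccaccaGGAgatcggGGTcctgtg

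*Col2a1* was also the member chosen for quantitative PCR in this study, and its primers amplify a stretch of the same repeat. The forward primer spans exons 13 and 14 and the reverse primer lies in exon 15 of the *Col2a1* transcript, giving an amplicon of 85 bases.
Forward primer of Col2a1: gggtcacagaggttacccag
Reverse primer of Col2a1: accaggggaaccactctca

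The libraries were deposited as CPM values, in which the reads of a gene are scaled to a total of 1000000 over all genes listed. From the smallest steps between values, about 43300000 reads fell on genes in replicate 1 and 42100000 in replicate 2, and 3 reads would be worth 0.0693 and 0.0712 CPM. The chain genes lay far above that level. On this estimate the least abundant of them, *Col27a1*, rests on 22321 and 12565 reads, and *Col2a1* on 6445778 and 4243040. Counting error in the log2 ratio of the libraries was then between 0.0009 and 0.0161 for the chain genes, and this covers counting only. The libraries are of 1 condition, so no test between groups was possible, and each value is given as its level in both libraries with the SD (n = 2).

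*Col2a1* (ENSMUSG00000022483.17, chromosome 15 from 97975602 to 98004695) reached 148953 CPM in replicate 1 and 100682 in replicate 2. This was 14.9% and 10.1% of all CPM of the library, and the gene ranked second in both. Per kilobase of its 5104-base transcript the level was 29184 and 19726, a mean of 24455 ± 6687 CPM per kilobase (SD, n = 2). On that scale *Col2a1* was the highest of the 22967 genes with a length in both libraries. Levels of different genes are ordered per kilobase from here on, because a longer transcript gives more fragments at the same abundance. CPM is kept for the same gene in both libraries and for shares of reads.

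The collagen XI genes came next among the 7. *Col11a1* (ENSMUSG00000027966.20, chromosome 3 from 114030540 to 114220718) reached 9755 CPM in replicate 1 and 7347 in replicate 2. *Col11a2* (ENSMUSG00000024330.17, chromosome 17 from 34039437 to 34066685) had 6393 and 5794 CPM. The larger CPM of *Col11a1* went with a longer transcript, 7667 against 5394 bases. Per kilobase the pair was level, with 1272 and 958 CPM per kilobase for *Col11a1* and 1185 and 1074 for *Col11a2*. The log2 ratio of *Col11a2* to *Col11a1* was -0.10 in replicate 1 and 0.16 in replicate 2, a mean of 0.03 that was smaller than its SD of 0.19. The direction within this pair was set by the length used, with a mean log2 ratio of 0.41 when all annotated exons are counted and -0.42 with the coding sequence alone.

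Of the collagen IX genes, *Col9a2* and *Col9a3* were close and *Col9a1* lay below them. *Col9a3* (ENSMUSG00000027570.15, chromosome 2 from 180597790 to 180622189) stood at 2771 CPM in replicate 1 and 2421 in replicate 2. *Col9a2* (ENSMUSG00000028626.5, chromosome 4 from 121039385 to 121055322) had 2653 and 1863 CPM. *Col9a1* (ENSMUSG00000026147.16, chromosome 1 from 24177610 to 24252684) had 1881 and 1087 CPM, the lowest of the 3 in both libraries.

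Per kilobase the gap within collagen IX was wider, since *Col9a1* has the longest transcript of the 3. *Col9a3* had 910 and 795 CPM per kilobase, *Col9a2* had 907 and 637, and *Col9a1* had 491 and 284. The log2 ratio of *Col9a3* to *Col9a2* was 0.0035 and 0.32, and its mean of 0.16 did not exceed its SD of 0.22. *Col9a1* was 1.85-fold lower than *Col9a2* in replicate 1 and 2.25-fold lower in replicate 2. Against *Col9a3* it was 1.85-fold and 2.80-fold lower. The mean log2 ratio of *Col9a1* to the average of the other two chains was -1.11 ± 0.32 (SD, n = 2), larger than the spread between libraries. It was -1.30 over all annotated exons and -1.18 over coding length, so the lower place of *Col9a1* did not rest on the length used. *Col9a1* is annotated with a second start inside the gene that gives a shorter coding transcript, and gene-level values pool both forms. *Col9a3* is overlapped on the opposite strand by *Tcfl5*, a transcription factor gene with 7.47 and 9.67 CPM, which is small beside *Col9a3*. The libraries were stranded, but whether the counting used strand is not given in the sources used here.

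*Col27a1* (ENSMUSG00000045672.15, chromosome 4 from 63214004 to 63334991) was the lowest of the group, at 516 CPM in replicate 1 and 298 in replicate 2. It also has one of the longest transcripts, 7612 bases, and per kilobase it had 67.8 and 39.2 CPM. *Col2a1* exceeded it 431-fold in replicate 1 and 504-fold in replicate 2, or by 8.86 ± 0.16 (SD, n = 2) on the log2 scale. *Col27a1* fell below *Col9a1* by the same factor in both libraries, 7.24-fold. An intron of *Col27a1* hosts *Mir455*, a microRNA gene known from cartilage, for which no value was analysed here.

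**Figure D2:**
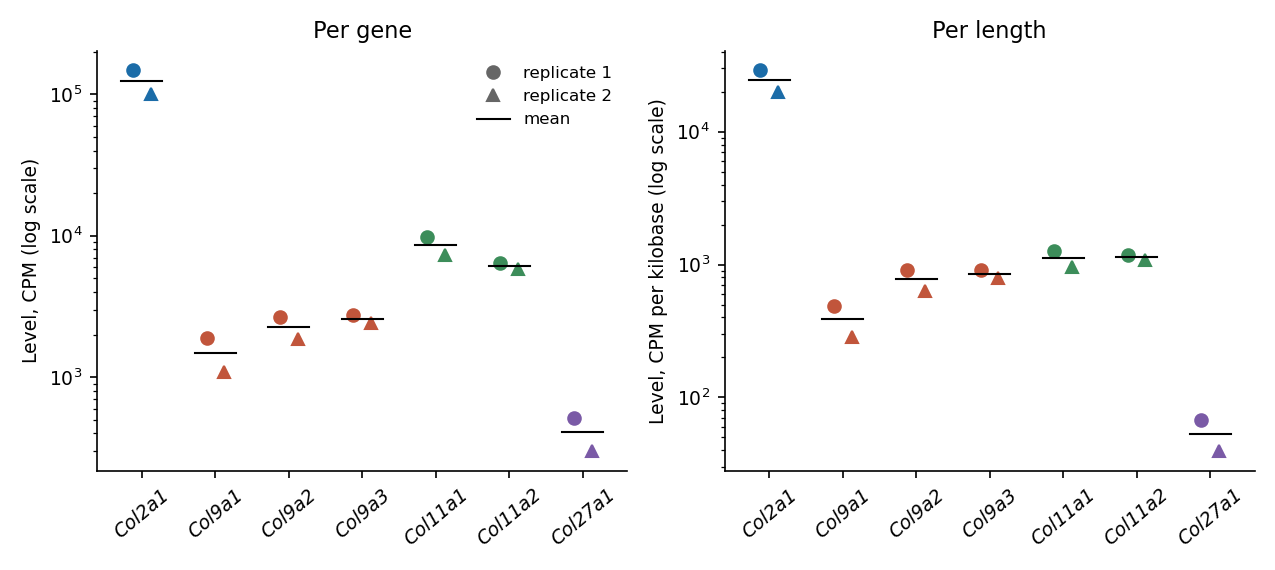
Levels of the 7 chain genes in replicate 1 (circles) and replicate 2 (triangles) on log scales, as CPM on the left and as CPM per kilobase of transcript on the right, with a line at the mean. *Col2a1* lies more than an order of magnitude above the other chains on both scales, and all 7 triangles lie below their circles.

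The scaling to a common total cancels in ratios between chains of one library, so these were compared next. Per kilobase and per gene, *Col2a1* exceeded the average collagen XI gene 23.8-fold in replicate 1 and 19.4-fold in replicate 2, or by 4.42 ± 0.21 (SD, n = 2) on the log2 scale. It exceeded the average collagen IX gene 37.9-fold and 34.5-fold, a log2 ratio of 5.18 ± 0.10 (SD, n = 2). The steadiest ratio of *Col2a1* to a single chain was that to *Col9a2*, 32.2-fold in replicate 1 and 31.0-fold in replicate 2. The average collagen XI gene was above the average collagen IX gene 1.60-fold and 1.78-fold, a log2 ratio of 0.75 ± 0.11 (SD, n = 2). This stayed above 0 with other lengths, at 0.47 over all annotated exons and 0.51 over coding length.

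Summed over the 7 genes per kilobase, *Col2a1* held 85.8% in replicate 1 and 83.9% in replicate 2. The collagen IX genes held 6.78% and 7.30%, the collagen XI genes 7.22% and 8.64%, and *Col27a1* 0.199% and 0.167%. These are shares of transcripts and say nothing of the protein laid down. The order by mean level per kilobase was *Col2a1*, *Col11a2*, *Col11a1*, *Col9a3*, *Col9a2*, *Col9a1* and *Col27a1*. The neighbours *Col11a2* and *Col11a1*, and *Col9a3* and *Col9a2*, did not differ beyond their spread. *Col11a1* was above *Col9a3* by a log2 ratio of 0.38 ± 0.15 (SD, n = 2), but over all annotated exons the pair was level at 671 and 674 CPM per kilobase. On that length *Col9a2*, at 730, stood above *Col11a1*. Over coding length *Col9a3*, at 1270, stood above *Col11a2*, at 1170, so the order of these middle chains depended on the length used. The first place of *Col2a1* and the last places of *Col9a1* and *Col27a1* held with all 3 lengths.

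**Figure D3:**
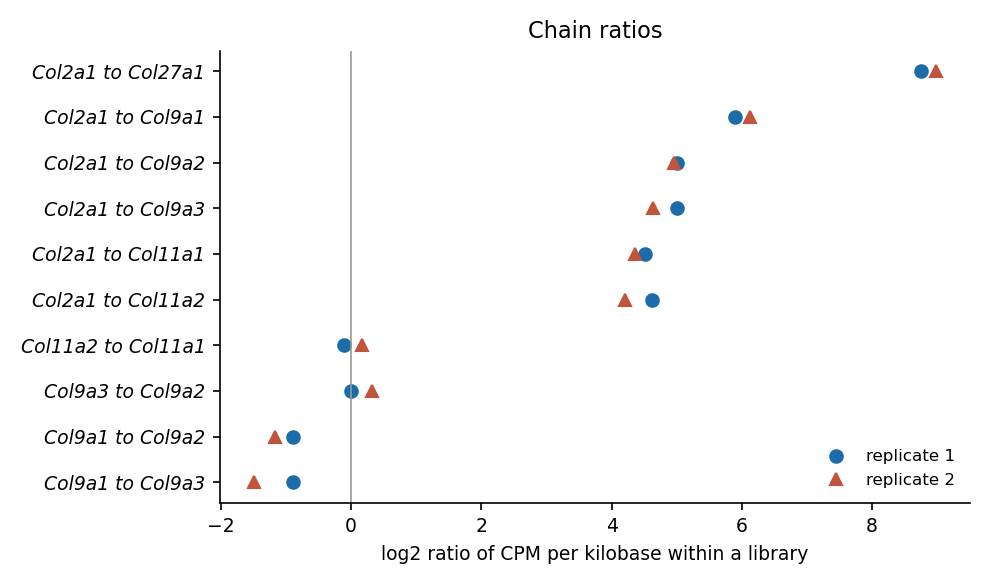
Log2 ratios of CPM per kilobase between chain genes within replicate 1 (circles) and within replicate 2 (triangles), with a line at 0 for equal levels. The pairs *Col11a2* to *Col11a1* and *Col9a3* to *Col9a2* sit at or near 0, *Col9a1* sits below both of its partners, and every ratio of *Col2a1* lies above 4.

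Among all 43 collagen chain genes, the 7 took 94.2% of the collagen CPM in replicate 1 and 90.1% in replicate 2, and per kilobase 94.3% and 90.5%. Without *Col2a1* the other 6 took 13.1% and 14.2% of the CPM. By mean CPM per kilobase, the 5 highest collagen genes were all from this group, namely *Col2a1*, *Col11a2*, *Col11a1*, *Col9a3* and *Col9a2*. They were followed by *Col10a1*, the collagen of hypertrophic cartilage, at 617 CPM per kilobase, and by *Col1a2*, a chain of collagen I, at 499, both as means. In replicate 2 alone *Col10a1*, at 674 CPM per kilobase, stood above *Col9a2*, at 637. By the mean, *Col9a1* was eighth and *Col27a1* was in place 16. *Col5a2*, a chain of collagen V, had a mean of 276 CPM per kilobase. *Col1a1* had 148 and *Col6a3*, a chain of the pericellular collagen VI, had 146.

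**Figure D4:**
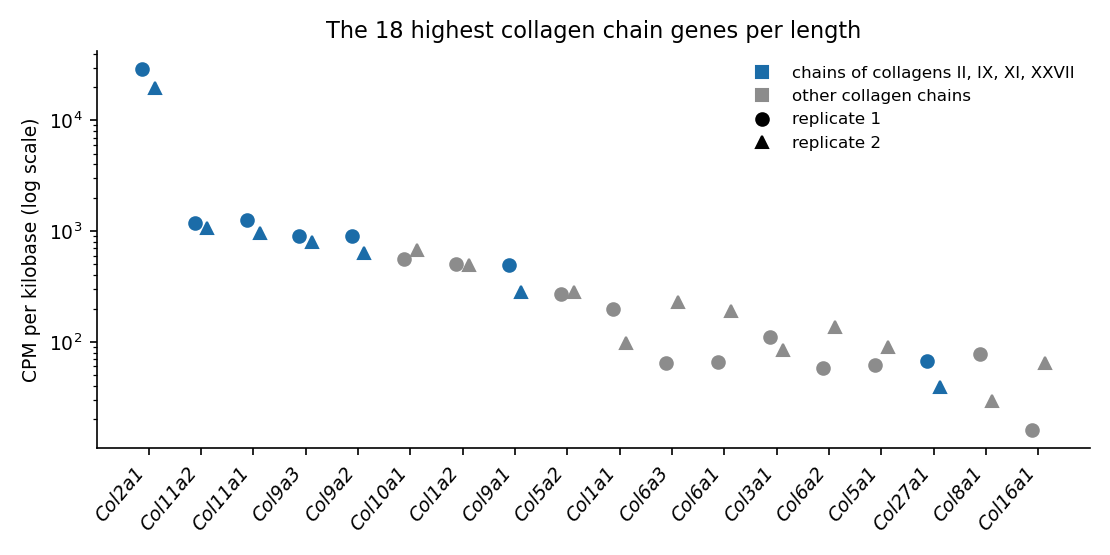
CPM per kilobase (log scale) of the 18 highest collagen chain genes, with the cartilage collagens in blue, the others in grey, replicate 1 as circles and replicate 2 as triangles. By the mean the 5 highest genes are *Col2a1*, the collagen XI pair, *Col9a3* and *Col9a2*, with *Col10a1* above *Col9a2* in replicate 2 alone, and *Col27a1* stands in place 16.

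The libraries differed in the level of the whole group. All 7 chain genes had fewer CPM in replicate 2, from *Col9a1* and *Col27a1*, each at 57.8% of replicate 1, to *Col11a2* at 90.6%. *Col2a1* stood at 67.6%, *Col9a2* at 70.2%, *Col11a1* at 75.3% and *Col9a3* at 87.4%. Over the 12631 genes whose mean reached 1 CPM, 25.7% were lower in replicate 2. CPM has a fixed total, and the 10 highest genes took 43.4% of it in replicate 1 and 34.7% in replicate 2. *Col2a1*, *Col11a1* and *Col11a2* are among them. A smaller share of such genes raises the CPM of the rest, so the share of 25.7% is not independent of the 7. Lower values were more common among abundant genes, with 78 of the 188 genes at or above the mean of *Col27a1* (41.5%) and 42 of the 68 genes whose mean reached 1000 CPM (61.8%). The 7 are themselves counted among the 188, and all of them but *Col27a1* among the 68. Other genes of their level went both ways. Each gap exceeded the counting error given above.

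The median gene was higher in replicate 2 by 0.30 on the log2 scale, computed with 0.1 CPM added to each value, and ratios were centred on it. After centring, *Col2a1* was lower in replicate 2 by a log2 ratio of -0.87, *Col11a1* by -0.71 and *Col11a2* by -0.45. The collagen IX ratios were -1.10 for *Col9a1*, -0.81 for *Col9a2* and -0.50 for *Col9a3*, and that of *Col27a1* was -1.09. The median of the 7 was -0.81, while the quartiles of all genes were -0.31 and 0.29. Past 2-fold were 2 of the 7, *Col9a1* and *Col27a1*, both lower and both by 2.14-fold, against 6.06% of all genes lower by that much and 10.1% of the 188 genes at or above the mean of *Col27a1*, whose median was -0.14. None of the 7 was higher by over 2-fold, against 7.43% of all genes. Without centring, 0 of the 7 passed 2-fold. In bulk libraries a lower level can come from fewer cells that make a transcript or from less of it per cell, and these cannot be told apart.

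**Figure D5:**
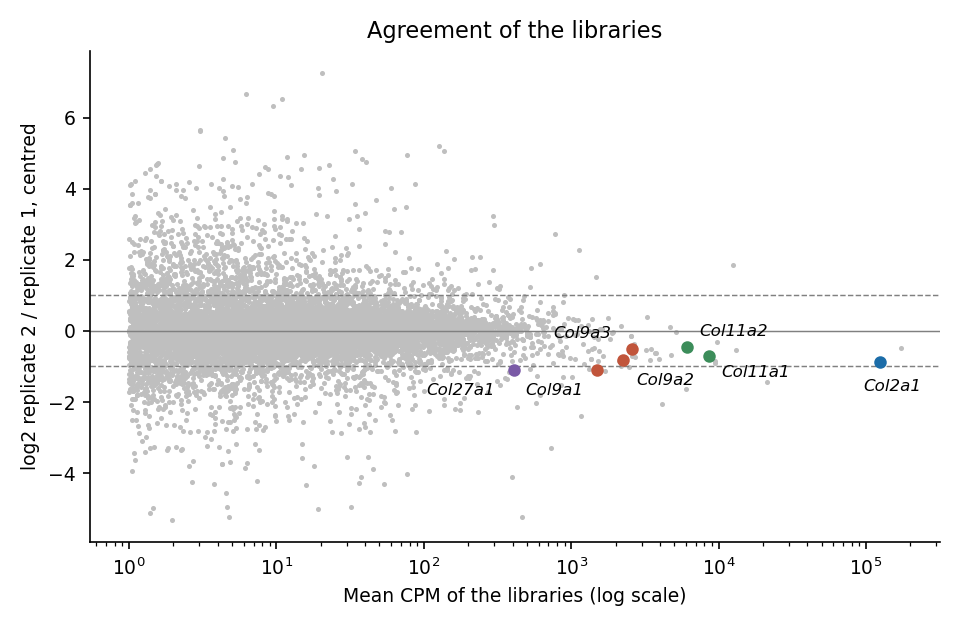
Log2 ratio of replicate 2 to replicate 1, centred on the median gene, against the mean CPM (log scale) for the 12631 genes whose mean reached 1 CPM, with dashed lines at 2-fold. The 7 chain genes lie between -1.10 and -0.45, and *Col9a1* and *Col27a1* lie just past the lower line.

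The other collagen genes were spread to both sides. Of the 25 whose mean reached 1 CPM, 8 had fewer CPM in replicate 2, against 25.7% of all genes, and their median centred log2 ratio was 0.23. Lower by over 2-fold were 4 and higher 8, against 6.06% and 7.43% of all genes. Several of these rest on low values. Among the higher, *Col18a1*, *Col25a1*, *Col28a1* and *Col24a1* were each below 1 CPM in replicate 1, where *Col24a1* was below 3 reads. Among the lower, *Col20a1* had 0.612 CPM in replicate 2. *Col1a1*, with 1166 and 584 CPM, was on the lower side, and *Col6a3*, with 646 and 2299 CPM, on the higher side. The difference between the 7 genes and the other collagens was not tested.

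Genes that make, process, bind or sense these fibrils were read from 6 lists of 53 genes, of which 52 reached a mean of 1 CPM. After centring, 6 were lower and 4 higher by over 2-fold in replicate 2, against 6.06% and 7.43% of all genes. The 4 higher genes are a share close to that of all genes. Of the 6 lower genes, 5 are from the list of fibril-bound partners described below. The median of the 52 genes was -0.14, and without centring it was 0.16, so the direction of the lists as a whole depended on centring.

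The transcription factors of the *Col2a1* enhancers had centred log2 ratios of -0.16 for *Sox9*, 0.14 for *Sox5* and -0.37 for *Sox6*. Without centring, the ratios were 0.15 for *Sox9*, 0.45 for *Sox5* and -0.07 for *Sox6*, so the direction of *Sox9* depended on centring. *Sox9*, the master regulator of chondrocytes, had 252 CPM in replicate 1 and 279 in replicate 2. *Sox5* had 38.4 and 52.4 CPM, and *Sox6*, the other member of the SOX trio, had 52.3 and 50.0. None of the 3 passed 2-fold after centring, against 6.06% of all genes lower and 7.43% higher by that much. Per kilobase, *Col2a1* exceeded *Sox9* 479-fold in replicate 1 and 293-fold in replicate 2.

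In the folding, modification and export list, 1 of 19 genes passed 2-fold after centring. Of all genes, 6.06% were lower and 7.43% higher by that much. *Serpinh1*, the collagen chaperone HSP47, had the highest level of the list per kilobase, and its CPM was 2403 in replicate 1 and 2712 in replicate 2. *Mia2*, a factor in collagen export, had the lowest mean per kilobase, and its CPM was 97.5 and 102. *P4ha3*, a prolyl hydroxylase subunit with 31.6 and 96.7 CPM, was the gene past 2-fold. None of the 5 lysyl oxidase genes, which cross-link fibrils, passed 2-fold, and at these shares of all genes few of any 5 would. Per kilobase *Lox* was the highest of them, at 388 and 528, and *Loxl1* the lowest, with a mean of 17.2.

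In the procollagen processing list, *Pcolce*, an enhancer of C-propeptide removal, was the highest per kilobase, at 145 and 175, followed by its relative *Pcolce2*, at 96.4 and 126. Of the 7 genes of this list whose mean reached 1 CPM, 1 was lower and 1 higher by over 2-fold after centring. Of all genes, 6.06% were lower and 7.43% higher by that much. *Adamts2*, an N-propeptidase of fibrillar procollagens, was the lower in replicate 2 (8.36 and 1.97 CPM), and *Tll1*, a C-proteinase, the higher (8.06 and 42.0 CPM). *Adamts3*, the N-propeptidase linked to procollagen II, had 12.5 and 9.49 CPM. *Tll2* was the lowest on both scales, with 0.0462 CPM in replicate 1 and listed at 0 in replicate 2. The other members did not pass 2-fold.

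Most genes for proteins that bind these fibrils were lower in replicate 2, as the chain genes were. Of 11 genes, 10 had fewer CPM there, against 25.7% of all genes, and 5 were lower by over 2-fold after centring, against 6.06% of all genes. The median level of the list was 573 CPM. Among the 188 genes at or above the mean of *Col27a1*, 41.5% were lower and 10.1% lower by over 2-fold after centring. *Bgn*, counted among the 10, was nearly equal at 9750 and 9739 CPM. The list's median was -0.84, and 3 of its genes (*Acan*, *Comp* and *Matn3*) are chondrocyte markers too. *Matn1*, a matrilin that bridges cartilage fibrils, had 902 CPM in replicate 1 and 29.2 in replicate 2, and its relative *Matn3* had 741 and 53.1. *Chad*, the cell-binding protein chondroadherin, had 6362 and 1891 CPM. *Dcn* (879 and 267 CPM) and *Lum* (495 and 240 CPM), small proteoglycans that coat fibrils, were the others past 2-fold. *Acan*, the main proteoglycan of cartilage, had 14170 and 12000 CPM. Per kilobase the highest of the list were *Bgn*, a small proteoglycan, at 4031 and 4026, and *Comp*, at 4593 and 3174, so their order differed between the libraries. *Matn4* was the lowest, at 6.15 and 4.27 CPM per kilobase.

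Among the collagen receptors, 2 of 7 were higher in replicate 2 by over 2-fold, against 7.43% of all genes. They were *Itga2*, with 1.99 and 21.8 CPM, and *Itga11*, with 1.57 and 5.53. *Itga10*, the integrin chain typical of chondrocytes, had 89.4 and 64.1 CPM and went the other way. *Itgb1*, their shared partner, had the highest level per kilobase, at 107 and 199.

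Markers of the labelled cell type were present in both libraries, and the lowest value of the 6 chondrocyte markers was that of *Matn3* in replicate 2 given above. *Hapln1*, link protein, had 396 and 544 CPM, and *Cnmd*, chondromodulin, had 1241 and 878. Markers of endothelial and red blood cells each summed to less than 1 CPM in each library, as did those of muscle. The 3 leukocyte markers listed summed to 2.59 and 2.44 CPM, nearly all from *Cd68*, a lysosomal protein of macrophages, at 2.57 and 2.40 CPM. *Ptprc* (CD45) was below 3 reads in both libraries and *Adgre1* was listed at 0. The 5 osteoblast markers summed to 5.59 CPM in replicate 1 and 52.3 in replicate 2. *Dmp1* (0.116 and 40.4 CPM) made up most of the sum in replicate 2 only, and *Sp7* had 1.96 and 6.81. *Ibsp* and *Bglap2*, the other osteoblast markers whose mean reached 1 CPM, had centred log2 ratios of 0.22 and 0.05. The 5 fibroblast markers summed to 64.6 and 5.23 CPM. *Col14a1* (62.2 and 2.37 CPM) made up most of the sum in replicate 1 only. *Pdgfra* had 2.03 and 2.71 CPM and did not fall, while *Pi16* was listed at 0 in both libraries. Of the osteoblast and fibroblast markers whose mean reached 1 CPM, *Dmp1* and *Sp7* were higher and *Col14a1* lower by over 2-fold after centring. Of all genes, 7.43% were higher and 6.06% lower by that much. Whether these shifts relate to the collagen levels was not tested.

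For each chain gene, the gene outside the group with the most similar pair of CPM values was found by the distance between log2 CPM over the 2 libraries. CPM was not divided by length here, so the likeness is one of read shares and not of transcript abundance. *Comp*, a fibril-binding protein of cartilage, was nearest to *Col11a1* (distance 0.20), with 11098 and 7669 CPM. *Papss2*, which makes the sulfate donor for proteoglycans, was nearest to *Col9a2* (0.14), with 2510 and 1714. *S100b*, a calcium-binding protein, was nearest to *Col27a1* (0.16), with 486 and 271, and *Col1a2* to *Col9a3* (0.12). *Gm28661*, annotated as an unprocessed pseudogene and so of uncertain level where reads are shared, was nearest to *Col9a1* (0.18). *Col2a1* and *Col11a2* had no close neighbour, the nearest being *Fn1* at 0.75 and *Eef1a1* at 0.46. With 2 libraries this likeness describes CPM and its shift only.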

How the data were processed

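RNA from 2 chondrosphere libraries of 1 group was sequenced as single-end reads of 50 bases from stranded poly(A) libraries. The authors aligned reads with STAR (version 2.7.3a) to GRCm38 with GENCODE M25 and quantified genes by Partek E/M (Partek Flow 10.0.21.0801). They deposited CPM values, one library per file, with 0.0001 added to every value, which was subtracted here. E/M can split a read among genes with shared sequence. Steps between low values gave whole reads for only 65.4% and 64.1% of them (within 0.02 of a read, below about 20 reads), so no count model was run.

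Lengths, exons and coordinates came from GENCODE M21 on GRCm38, an earlier release than the authors used, where 97.2% of gene names matched 1 gene. The length of a gene was the spliced length of its transcript with the longest coding sequence. Alternatives were all annotated exons and the coding sequence alone. Log2 ratios of the libraries had a pseudocount of 0.1 CPM, understate changes of low genes, and were centred on the median gene whose mean reached 1 CPM. Past 2-fold counted as called, with no p-value, because the design has 1 condition. Other settings were pseudocounts of 1 and 0.01 CPM, a minimum of 10 CPM or none, a trimmed mean (30% of ratios, 5% of levels on each side), a total without the 10 highest genes, and each library alone.

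A triplet run is at least 10 consecutive triplets of codons that each open with glycine (GGN). The members and lists were chosen with earlier results of these data known. Named genes are the members, list genes past 2-fold or at a list's highest or lowest level (ordered per kilobase, a scale set after seeing the data), the 5 highest other collagens and the gene nearest to each member. A few further list genes (*Adamts3*, *Pcolce2*, *Acan*, *Sox6*, *Itga10*, *Hapln1* and *Cnmd*, and the markers) were named after their values were seen. So were the collagens *Col18a1*, *Col20a1*, *Col24a1*, *Col25a1* and *Col28a1*. The shares of lower genes above the mean of *Col27a1* and above 1000 CPM were added after seeing the data. The marker *Cd3e* was not used here. The computation was tested on simulated data. Python 3.11.15, numpy 2.4.6, pandas 2.3.3 and matplotlib 3.10.9 were used.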

Additional observations from a re-analysis of the deposited data

How the results depend on the processing

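With 2 libraries of 1 condition, an SD rests on a single difference, and leaving out a library moves a mean by less than that SD by arithmetic. The 7 chain genes summed to 146207 CPM, and to 244100 CPM when the total excluded the 10 highest genes, as a smaller total requires. *Col2a1* held 84.8% of the group per kilobase as a mean, 80.2% over all annotated exons and 82.8% over coding length. The log2 ratio of *Col11a2* to *Col11a1* (0.03) was 0.41 over all annotated exons, -0.42 over coding length and -0.48 with no division by length. That of *Col2a1* to *Col27a1* (8.86) was 8.60 over coding length and 8.29 with no division. That of *Col9a1* to the other collagen IX genes (-1.11) was -0.75 with no division. *Col2a1* to the collagen XI genes (4.42) gave 4.09 over all annotated exons and 4.07 with no division, and *Col2a1* to the collagen IX genes (5.18) gave 4.57 over all annotated exons, 4.84 over coding length and 5.87 with no division. Each of these changes comes from the lengths themselves. Without centring, 0 in place of 2 chain genes were lower by over 2-fold, and the median log2 ratio of the fibril assembly lists turned from -0.14 to 0.16. The 2 chain genes remained past 2-fold, and the median of the 7 stayed between -0.83 and -0.77, under the other pseudocounts, minimum levels and centre. The 3 reads that set the lowest level do not limit these abundant genes. No paired analysis was possible because there is only 1 group.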
